A study of Mus musculus with 4 samples.

Results

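A set of 10 genes of neutrophil recruitment was followed in whole liver RNA from alcohol-fed mice with and without hepatocyte Brg1. They were chosen by name from the deposited expression table, and all of them were found among its 22103 entries. They are the chemokine genes *Cxcl1* and *Cxcl2* and their receptor gene *Cxcr2*, the calprotectin genes *S100a8* and *S100a9*, the endothelial adhesion genes *Icam1*, *Vcam1*, *Sele* and *Selp*, and the integrin gene *Itgb2*. RNA-seq was performed on the livers of 2 WT mice and 2 Brg1LKO mice (labelled KO), 1 liver per library, to look for the attracting signal that WT livers send to neutrophils. Brg1LKO mice carry floxed *Smarca4*, the gene of Brg1, deleted by *Alb*-Cre, and the WT mice were littermates. The study's methods give male mice of 8 weeks. All 4 mice, controls included, received alcohol, for 15 days per the sample labels and as a liquid diet of 2 weeks with a final gavage (the NIAAA procedure) per the study's methods. No liver without alcohol was analysed here, so the comparison is between genotypes under alcohol only. The Cre acts in hepatocytes, whereas most of these genes are also or mainly expressed by endothelial cells and leukocytes, which keep *Smarca4*. In whole liver, fewer cells of a type and less RNA per cell cannot be told apart.

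Neutrophils leave the blood in steps. Selectins on the endothelium, P-selectin (*Selp*) and E-selectin (*Sele*), slow the cell so that it rolls, chemokines such as CXCL1 and CXCL2 signal through CXCR2 and switch on the β2 integrins, whose common chain is encoded by *Itgb2*, and the integrins then hold on to ICAM-1. VCAM-1 is the matching ligand of the α4 integrins, used mostly by monocytes and lymphocytes. *S100a8* and *S100a9* encode the subunits of calprotectin, a protein stored in large amounts in neutrophils that also acts as a danger signal. In the sinusoids of the liver, selectins are known to be needed less than in other vessels, and neutrophil infiltration is a hallmark of alcoholic hepatitis.

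Depth, recovered from the steps of the low values, ranged from 72599107 to 80935546 reads per library. Albumin, the defining hepatocyte transcript, stood between 10710 and 12486 FPKM (fragments per kilobase of transcript, scaled to the fragments of the library). *Smarca4* was at 1.78 and 1.95 FPKM in WT mice, and at 0.608 and 0.579 FPKM in Brg1LKO mice, 31.8% of the WT level (log2 fold change −1.50, standard error 0.34), with both Brg1LKO livers below both WT livers. Genes were compared with limma on log2(FPKM + 0.1), a scale that understates the change of low genes, over 12346 genes whose mean reached 0.1 FPKM. A gene was called past the threshold when its unadjusted p was under 0.05 and it changed more than 2-fold, a rule taken over from the methods of the original work. It was passed by 0.98% of the genes tested, 0.437% being higher and 0.543% lower in Brg1LKO mice. An unadjusted p under 0.05 alone was reached by 2.0%, and by 1.02% with the Brg1LKO mice higher. The groups did not overlap in 20.7% of the genes tested. After Benjamini-Hochberg adjustment, limma left 0 genes under 0.05, where 247 had been under it before. Permuting 2 livers against 2 cannot give a two-sided p below 0.333, and the calls therefore depend on the variance that limma pools over genes.

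Of the 10 recruitment genes, 9 passed the filter on low values and were tested, while *Sele* was below it. None was past the threshold on the log2(FPKM + 0.1) scale, against 0.98% of all genes tested. *Itgb2* alone had an unadjusted p under 0.05, and it was higher in the Brg1LKO livers. With a pseudocount of 0.01 (log2 fold change 1.03) or voom on estimated reads (1.05), *Itgb2* was past the threshold. The groups did not overlap in 2 of the 9, *Itgb2* with both Brg1LKO livers above and *Selp* with both below, near the 20.7% over all genes. Each of the 9 had an adjusted p of 1 in limma.

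**Figure D1:**
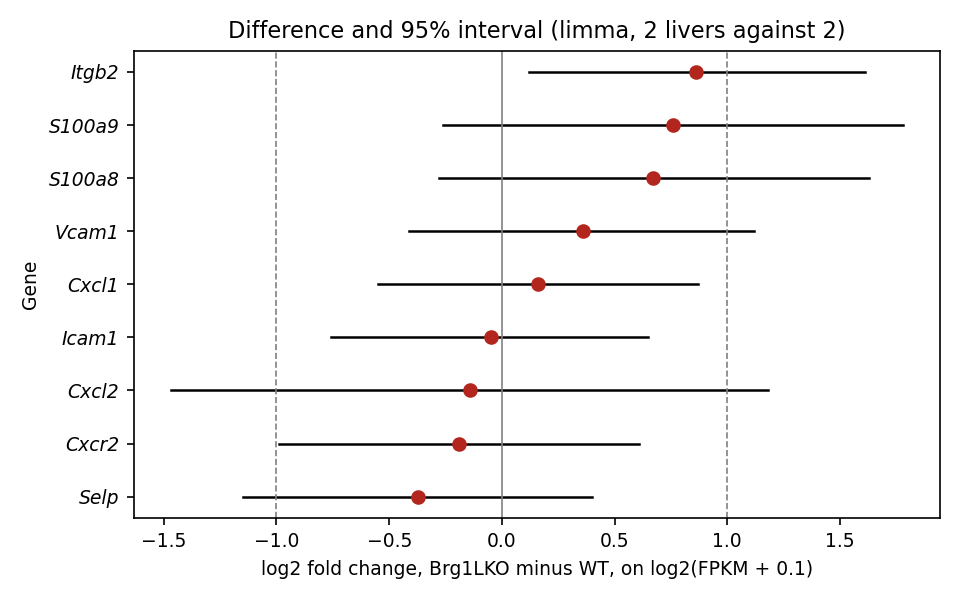
log2 fold change of Brg1LKO against WT on the log2(FPKM + 0.1) scale (horizontal axis, points) with its 95% interval (lines) for the 9 genes tested (vertical axis), and dashed lines at a 2-fold change. Only the interval of Itgb2 (0.12 to 1.61) lies on 1 side of 0.

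The levels spanned more than 3 orders of magnitude, in FPKM and so per length of transcript. Averaged over the 4 livers, *Cxcl1* was highest at 46.1 FPKM, followed by *S100a9* at 7.51, *Icam1* at 4.96, *S100a8* at 1.70 and *Vcam1* at 1.07 FPKM. *Itgb2* followed at 0.489, *Selp* at 0.257, *Cxcl2* at 0.143, *Cxcr2* at 0.108 and *Sele* at 0.0134 FPKM. Neighbours in this order overlapped between livers for *S100a9* and *Icam1*, for *S100a8* and *Vcam1*, for *Itgb2* and *Selp*, and for *Selp*, *Cxcl2* and *Cxcr2*, so their order is not set beyond the spread. *Cxcl1* was above, and *Icam1* above *S100a8*, in every liver.

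**Figure D2:**
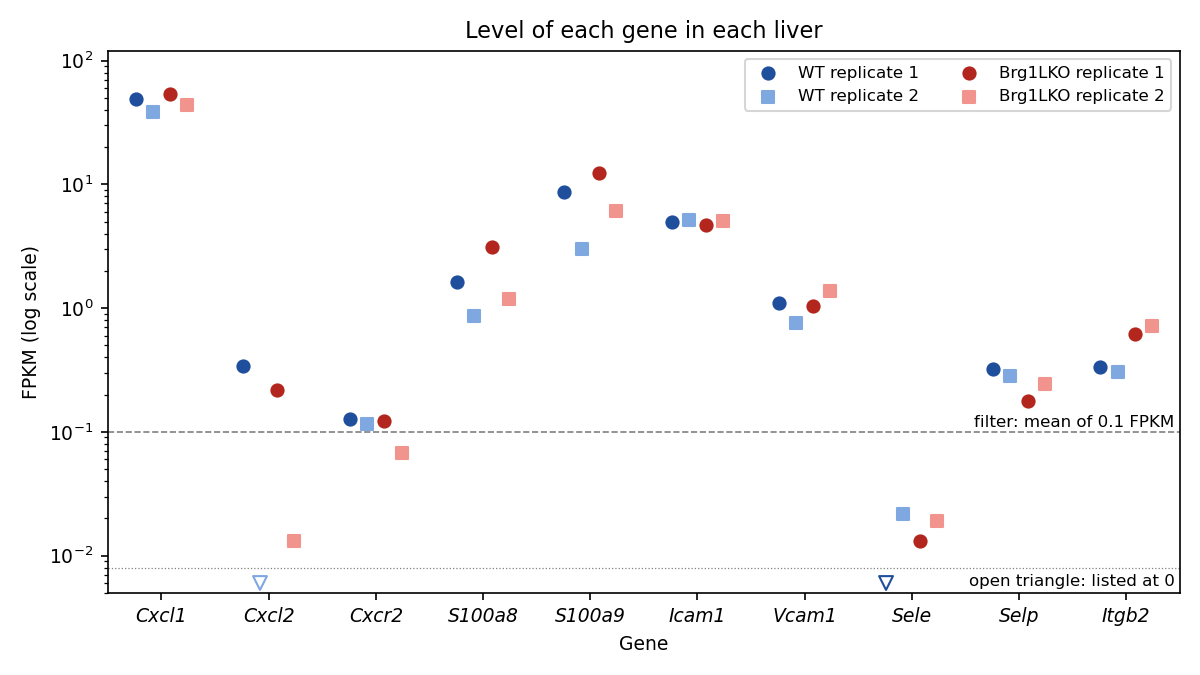
FPKM on a log scale (vertical axis) of the 10 genes (horizontal axis), with 1 point per liver, blue for WT and red for Brg1LKO, and open triangles for values listed at 0. Cxcl1 lies between 38.2 and 53.3 FPKM in all 4 livers, Sele near the bottom, and only the points of Itgb2 and Selp separate by genotype.

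*Cxcl1* encodes a CXCR2 ligand that hepatocytes and other liver cells can make. Its listed transcript (ENSMUST00000031327, 4 exons) occupies positions 90891241 to 90893115 of chromosome 5 in GRCm38, plus strand. The level was 49.1 and 38.2 FPKM in WT mice, and 53.3 and 43.8 FPKM in Brg1LKO mice, from an estimated 3787, 2907, 3972 and 3028 reads. The groups overlapped, and the first replicate of either genotype was the higher one. The means were 43.6 ± 7.72 and 48.5 ± 6.75 FPKM (SD, n = 2 each). The log2 fold change was 0.16 (standard error 0.33, 95% interval −0.55 to 0.87), an interval that spans falls and rises of less than 2-fold. The study itself reported comparable CXCL1 expression in WT and Brg1LKO mice.

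*Cxcl2*, the neighbouring gene for a second CXCR2 ligand, starts 10.8 kb downstream, from 90903871 to 90905938 on the same strand. The gene stood at 0.340 FPKM in WT replicate 1, at 0 in WT replicate 2, at 0.218 FPKM in Brg1LKO replicate 1 and at 0.0131 FPKM in Brg1LKO replicate 2. The reads behind them were an estimated 31, 0, 19 and 1, and a count of 0 allows up to 3 reads or 0.0339 FPKM in WT replicate 2. Within either genotype, 1 liver had nearly all the reads. The log2 fold change was −0.14 (standard error 0.62, 95% interval −1.47 to 1.18), and it changed sign when WT replicate 1 was left out (0.92) or Brg1LKO replicate 2 (0.60). *Cxcl1* was 144-fold above *Cxcl2* in WT replicate 1, 244-fold in Brg1LKO replicate 1 and 3350-fold in Brg1LKO replicate 2, where *Cxcl2* rests on 1 read.

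The promoter windows of this gene pair are shown because the genes are adjacent and answer the same inducers, yet differ so far in level. RefSeq windows (GRCm38.p6, 250 bases before to 50 after the gene start) were found for 8 of the 10 genes, all but *Vcam1* and *Itgb2*. They were searched on both strands for GGNNNTTCC, a loose form of the κB motif bound by NF-κB, which is in 18.5% of all 32851 windows. It was found in 5 of the 8, at 2 positions each in *Cxcl1*, *Cxcl2* and *Icam1* and at 1 each in *Sele* and *Selp*. Both chemokine windows hold GGAATTTCC, which matches on both strands, 70 bases before the start in *Cxcl1* and 96 bases before it in *Cxcl2*. The windows run from 5′ to 3′ on the plus strand, chr5:90890995-90891294 for *Cxcl1* and chr5:90903649-90903948 for *Cxcl2*, with the matches in capitals.
Cxcl1: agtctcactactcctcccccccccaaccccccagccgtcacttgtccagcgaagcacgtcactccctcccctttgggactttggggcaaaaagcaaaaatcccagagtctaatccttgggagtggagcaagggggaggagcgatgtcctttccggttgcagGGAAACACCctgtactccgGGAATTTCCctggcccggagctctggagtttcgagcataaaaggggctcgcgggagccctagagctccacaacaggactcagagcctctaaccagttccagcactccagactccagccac
Cxcl2: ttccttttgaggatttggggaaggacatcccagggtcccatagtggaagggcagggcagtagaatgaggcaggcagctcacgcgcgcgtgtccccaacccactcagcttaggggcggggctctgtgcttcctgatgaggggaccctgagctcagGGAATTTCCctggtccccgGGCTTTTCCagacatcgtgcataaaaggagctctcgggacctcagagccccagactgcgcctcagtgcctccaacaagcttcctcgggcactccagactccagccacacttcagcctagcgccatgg
A match is a description of the letters and not of a bound site, and no binding was measured in these livers.

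The other CXCR2 ligand genes were close to the limit of detection. *Cxcl3*, *Cxcl5*, *Cxcl15* and *Ppbp* had at most 5 estimated reads in any liver, and all of them were at 0 in WT replicate 2. *Cxcl1* therefore held nearly all of the summed level of the 6 ligand genes, which was 49.5 and 38.2 FPKM in the WT livers and 53.6 and 43.8 FPKM in the Brg1LKO livers.

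*Cxcr2*, the receptor gene, is expressed mainly by neutrophils and occupies positions 74153989 to 74161246 of chromosome 1, plus strand. The gene was at 0.126 and 0.115 FPKM in WT mice, and at 0.122 and 0.0678 FPKM in Brg1LKO mice, from 31, 28, 29 and 15 reads. Only Brg1LKO replicate 2 was lower. The log2 fold change was −0.19 (standard error 0.37, 95% interval −0.99 to 0.61), and 0.01 without that liver. Of 9 other receptor genes for neutrophil attractants, 5 were tested and 0 were past the threshold, with a median log2 fold change of 0.37 against −0.024 over all genes tested. Single livers moved this median, to −0.07 when WT replicate 2 was omitted and to 0.65 when WT replicate 1 was. It was −0.04 without Brg1LKO replicate 2 and 0.79 without Brg1LKO replicate 1. The most abundant was *Fpr1*, the receptor for bacterial formyl peptides, at 1.29 and 0.633 FPKM in WT mice, and at 0.879 and 1.64 FPKM in Brg1LKO mice. An unadjusted p under 0.05 was reached by *Cxcr4*, the CXCL12 receptor (log2 fold change 0.94), and by *C5ar1*, the complement C5a receptor (0.77), both named after their values were seen and both also expressed by macrophages or lymphocytes.

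*S100a8* and *S100a9* lie 22.6 kb apart on chromosome 3, *S100a8* from 90668978 to 90670035 on the plus strand and *S100a9* from 90692632 to 90695721 on the minus strand. *S100a8* was at 1.61 and 0.862 FPKM in WT mice, and at 3.13 and 1.19 FPKM in Brg1LKO mice. *S100a9* was at 8.64 and 2.99 FPKM in WT mice, and at 12.3 and 6.10 FPKM in Brg1LKO mice, from 363, 124, 500 and 230 reads. For both genes Brg1LKO replicate 1 was the highest liver and WT replicate 2 the lowest, and the groups overlapped. *S100a9* exceeded *S100a8* in every liver, by between 3.47-fold and 5.38-fold.

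The means of *S100a8* were 1.23 ± 0.527 FPKM in the WT livers and 2.16 ± 1.37 FPKM in the Brg1LKO livers, and those of *S100a9* were 5.82 ± 4.0 and 9.21 ± 4.4 FPKM (SD, n = 2 each). The log2 fold changes were 0.67 for *S100a8* (standard error 0.45, 95% interval −0.28 to 1.63) and 0.76 for *S100a9* (standard error 0.48, 95% interval −0.26 to 1.78). Both intervals include 0 and rises of more than 2-fold. Single livers set the size. *S100a8* was at 0.01 without Brg1LKO replicate 1 and reached 1.33, past the threshold, without Brg1LKO replicate 2. *S100a9* was at 0.01 without WT replicate 2, and was past the threshold without WT replicate 1 (1.51) and without Brg1LKO replicate 2 (1.26).

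The windows of the calprotectin genes are shown because their levels went together over the 4 livers. The *S100a8* window is chr3:90668821-90669120 on the plus strand and the *S100a9* window chr3:90695672-90695971 on the minus strand, each written 5′ to 3′ on its own strand.
S100a8: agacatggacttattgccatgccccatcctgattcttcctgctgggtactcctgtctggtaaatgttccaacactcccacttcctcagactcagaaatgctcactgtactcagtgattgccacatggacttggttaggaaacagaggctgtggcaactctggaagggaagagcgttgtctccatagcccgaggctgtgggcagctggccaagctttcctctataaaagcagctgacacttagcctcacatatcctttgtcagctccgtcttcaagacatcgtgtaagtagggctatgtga
S100a9: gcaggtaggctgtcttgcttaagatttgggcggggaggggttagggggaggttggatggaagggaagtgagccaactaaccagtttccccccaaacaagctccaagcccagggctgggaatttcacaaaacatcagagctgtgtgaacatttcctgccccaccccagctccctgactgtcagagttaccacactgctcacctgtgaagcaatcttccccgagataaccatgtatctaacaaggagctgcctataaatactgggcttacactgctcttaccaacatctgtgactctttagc
Neither holds GGNNNTTCC, so there are no capitals. Both hold TATAAA, the letters of a TATA box, as do 13.6% of all windows. These letters begin 30 bases before the start in *S100a8*, but at the start itself (position 1) in *S100a9*. The *S100a9* window also holds TTGCNNAA, a form of the C/EBP motif, which is in 10.8% of all windows and in none of the other 7.

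Among all genes tested, those with a profile over the 4 livers most like *S100a8* were *Abca1*, *Aass*, *Etnk2*, *Il1r1* and *Tifa*, by the Euclidean distance between centred log2(FPKM + 0.1) values (0.154 to 0.288). *Abca1*, a cholesterol exporter, was nearest, at 13.1 and 7.52 FPKM in WT mice, and at 23.3 and 10.8 FPKM in Brg1LKO mice. *Il1r1*, the interleukin 1 receptor gene, was at 15.6, 9.97, 38.6 and 14.5 FPKM in the same order. The likeness is over 4 livers only and carries no test.

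**Figure D3:**
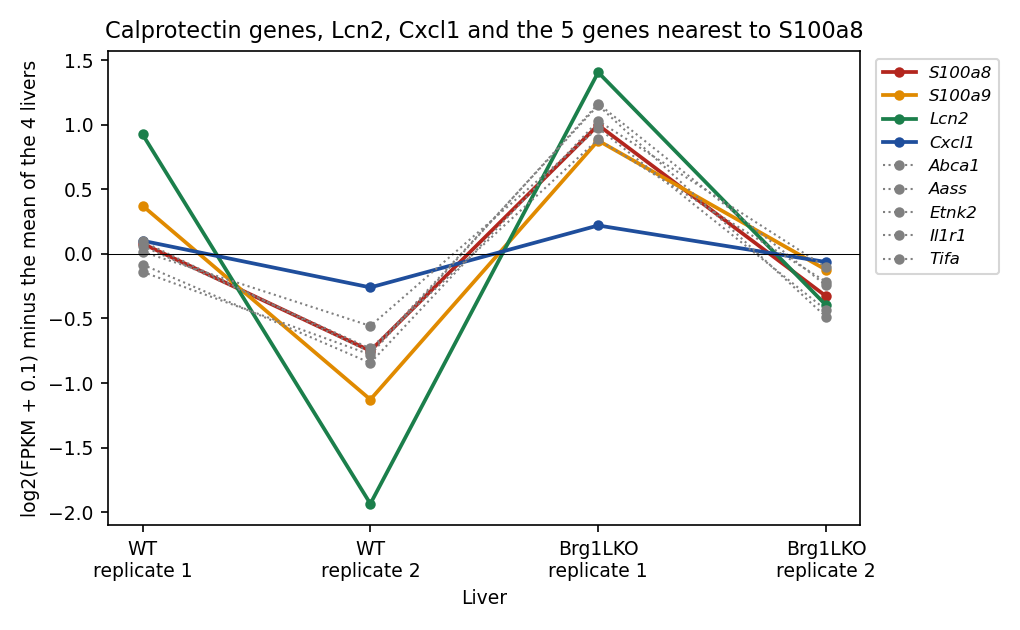
log2(FPKM + 0.1) minus the mean of the 4 livers (vertical axis) in each liver (horizontal axis), for S100a8, S100a9, Lcn2 and Cxcl1 in colour and the 5 genes nearest to S100a8 in grey, with lines joining the values of 1 gene. All are highest in Brg1LKO replicate 1, and S100a8, S100a9, Lcn2 and Cxcl1 are lowest in WT replicate 2.

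The markers that define neutrophils were scarce in all libraries. *Ly6g*, whose product was used in the study to stain neutrophils, was counted at an estimated 1 and 0 reads in WT mice, and at 4 and 1 reads in Brg1LKO mice. By flow cytometry and staining, which count cells and not RNA, the study found fewer neutrophils in Brg1LKO livers. Of 16 neutrophil marker genes, *S100a8*, *S100a9* and *Cxcr2* included, 8 were tested and 0 were past the threshold, 6 higher and 2 lower, with a median log2 fold change of 0.28. The median was −0.16 without WT replicate 2 and 0.06 without Brg1LKO replicate 1. Without WT replicate 1 it was 0.86, and without Brg1LKO replicate 2 it was 0.66. *Csf3r*, the receptor for the neutrophil growth factor G-CSF, was at 0.234, 0.248, 0.250 and 0.376 FPKM (WT replicates 1 and 2, then Brg1LKO replicates 1 and 2). The granule and surface genes *Retnlg*, *Mmp8*, *Cd177* and *Il1r2* were each lower in the second replicate than in the first of either genotype. *Mmp9*, a gelatinase gene, stayed between 0.0749 and 0.0895 FPKM.

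The genes for granule proteins made in the marrow while neutrophils mature were grouped after their values were seen. *Mpo*, *Elane*, *Ngp*, *Camp* and *Ltf* together amounted to 5 and 3 estimated reads in WT mice, and to 24 and 16 reads in Brg1LKO mice. *Mpo*, *Camp* and *Ltf* were at 0 in both WT livers, with at most 5 reads in a Brg1LKO liver, and *Ngp* had 1 and 0 reads against 10 and 5. All 5 were under the filter and were not tested, and each rests on 10 reads or fewer per liver. The summed level of the 16 markers was dominated by *Lcn2*, which hepatocytes also make in large amounts as an acute-phase protein. *Lcn2* was at 842 and 116 FPKM in WT mice, and at 1175 and 337 FPKM in Brg1LKO mice, in the same order of livers as *S100a9*. Its part in the calprotectin values was not tested. Without *Lcn2*, the markers summed to 12.0 and 4.63 FPKM in WT mice, and to 17.1 and 8.49 FPKM in Brg1LKO mice, and without the calprotectin genes as well to 1.79, 0.782, 1.69 and 1.19 FPKM.

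*Icam1* encodes the ligand that holds β2 integrins and occupies positions 21015985 to 21028817 of chromosome 9, plus strand. It was the steadiest of the 10 genes, at 4.96 and 5.15 FPKM in WT mice, and at 4.72 and 5.01 FPKM in Brg1LKO mice, from between 922 and 1044 reads. The log2 fold change was −0.05 (standard error 0.33, 95% interval −0.76 to 0.65), and it stayed between −0.10 and −0.01 under all 13 alternatives. *Vcam1*, at positions 116109949 to 116129688 of chromosome 3, minus strand, was at 1.10 and 0.755 FPKM in WT mice, and at 1.03 and 1.38 FPKM in Brg1LKO mice. The groups overlapped, and the log2 fold change was 0.36 (standard error 0.36, 95% interval −0.41 to 1.12). *Icam1* exceeded *Vcam1* by between 3.62-fold and 6.83-fold in each liver. Each of these genes is overlapped by a predicted gene on the opposite strand, and whether the authors' FPKM used strand is not given in the sources used here.

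The selectin genes are neighbours on chromosome 1, 57.6 kb apart on the plus strand. *Sele*, from 164048234 to 164057677, was at 0 and 0.0215 FPKM in WT mice, and at 0.0132 and 0.0189 FPKM in Brg1LKO mice, from 0, 5, 3 and 4 reads. No difference could be detected at this depth, where a count of 0 allows up to 3 reads (0.0127 FPKM) in WT replicate 1. *Selp*, from 164115264 to 164150026, was at 0.323 and 0.280 FPKM in WT mice, and at 0.179 and 0.244 FPKM in Brg1LKO mice, from 90, 77, 48 and 61 reads. Both Brg1LKO livers lay below both WT livers, as in 10.0% of all genes tested. The means were 0.302 ± 0.0305 and 0.211 ± 0.0465 FPKM (SD, n = 2 each), and the Brg1LKO mean was 70.1% of the other. Its log2 fold change of −0.37 did not pass the test (standard error 0.36, 95% interval −1.15 to 0.40), and 2 predicted genes overlap *Selp* on the opposite strand.

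P-selectin is made by endothelium and by platelets, and markers of both were set beside *Selp*. The 10 sinusoidal endothelial markers had a median log2 fold change of −0.23, 9 lower and 1 higher, with 0 past the threshold. The median turned to 0.21 without Brg1LKO replicate 1, with 6 higher, and was −0.58 without Brg1LKO replicate 2. They summed to 39.5 and 39.8 FPKM in WT mice, and to 30.0 and 40.6 FPKM in Brg1LKO mice. The sum was thus lowest in Brg1LKO replicate 1, as *Selp* was. In Brg1LKO replicate 2 the sum was the highest, whereas *Selp*, at 0.244 FPKM, was below both WT livers. Of 5 platelet markers, *Itga2b* and *Gp1bb* were tested, with log2 fold changes of −0.31 and −0.17. Their median turned from −0.24 to 0.06 without WT replicate 2. Under the filter, *Pf4* and *Ppbp* went the other way (0.14 and 0.37), with at most 4 reads in a liver, and *Gp9*, a defining marker, was at 0 in all livers. The part of either cell type in the *Selp* values was not tested.

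*Itgb2* encodes CD18, the common chain of the β2 integrins of all leukocytes, macrophages included. Its listed transcript (ENSMUST00000000299, 16 exons) occupies positions 77530252 to 77565708 of chromosome 10, plus strand. The gene was at 0.333 and 0.303 FPKM in WT mice, and at 0.612 and 0.710 FPKM in Brg1LKO mice, from 80, 72, 142 and 153 reads. Both Brg1LKO livers were above both WT livers, as in 10.7% of all genes tested, and the spread within either genotype was small. The means were 0.318 ± 0.0208 FPKM and 0.661 ± 0.0693 FPKM (SD, n = 2 each), a ratio of 2.08. On the log2(FPKM + 0.1) scale the log2 fold change was 0.86 (standard error 0.35, 95% interval 0.12 to 1.61), under the 2-fold limit, with adjusted p = 1 in limma. It was past the threshold with a pseudocount of 0.01 (1.03) and with voom on estimated reads (1.05). Omitting single livers gave 0.77 to 0.95, and the unadjusted p was no longer under 0.05 without WT replicate 1 or without WT replicate 2.

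The partner chains did not all go the same way. *Itgal*, the α chain of LFA-1, was at 0.220 and 0.232 FPKM in WT mice, and at 0.250 and 0.691 FPKM in Brg1LKO mice. *Itgam*, the α chain of Mac-1 on neutrophils and monocytes, was at 0.193 and 0.206 FPKM against 0.186 and 0.189 FPKM, a log2 fold change of −0.06. *Itgax* and *Itgad* were under the filter. *Itgb1*, the most abundant integrin gene of the list and no β2 integrin, had a log2 fold change of 0.13.

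Macrophage markers were mostly higher in the same livers as *Itgb2*. The group mean on the log2 scale was higher in Brg1LKO for all 11. In 9 of them both Brg1LKO livers were above both WT livers, against 10.7% of all genes tested. The exceptions were *Timd4* and *Adgre1* in Brg1LKO replicate 1. The median log2 fold change was 0.84. Past the threshold were 3, *Cd68*, *Vsig4* and *Cd5l*, against 0.98% of all genes tested. Of these, *Vsig4* lost this call in 9 and *Cd5l* in 6 of the 13 alternatives. The median was 0.25 without Brg1LKO replicate 2 and 1.39 without Brg1LKO replicate 1. The 11 markers summed to 48.8 and 49.9 FPKM in WT mice, and to 63.2 and 139 FPKM in Brg1LKO mice, and none of them was at 0. Relative to the mean of the WT livers, *Itgb2* was at 1.92 and 2.23 times in Brg1LKO replicates 1 and 2, the marker sum at 1.28 and 2.82 times, and *Cd68*, a lysosomal marker of macrophages, at 2.12 and 3.82 times. The neutrophil markers without *Lcn2* stood at 2.06 and 1.02 times the WT mean in these livers, and at 1.44 and 0.556 times in the WT livers. Without *S100a8* and *S100a9* as well, their sum was 1.79 and 0.782 FPKM in WT mice, and 1.69 and 1.19 FPKM in Brg1LKO mice. Without the filter on low values, 5 of 5 monocyte and 3 of 3 T cell markers had a higher log2 mean in Brg1LKO. So had 3 of 3 NK cell and 3 of 4 B cell markers, and most of these markers had few reads. By flow cytometry, the study found the macrophage population little affected by the loss of Brg1. The part of macrophages or other leukocytes in the *Itgb2* values was not tested.

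**Figure D4:**
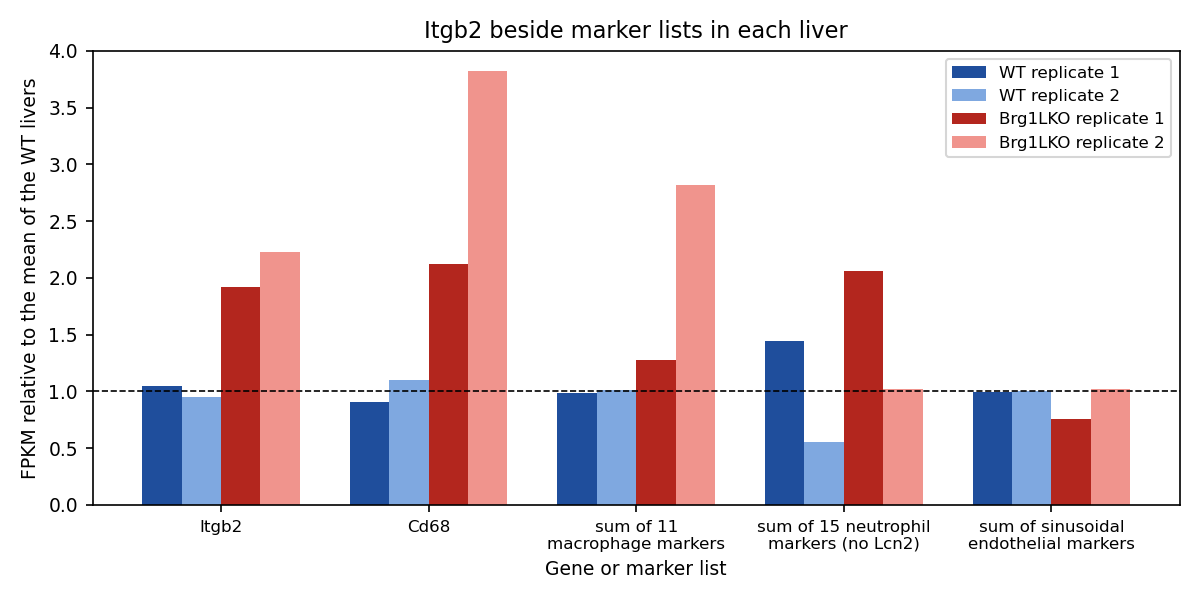
FPKM relative to the mean of the WT livers (vertical axis, dashed line at 1) of Itgb2, Cd68 and the sums of 3 marker lists (horizontal axis), with 1 bar per liver. Itgb2, Cd68 and the macrophage sum are above 1 in both Brg1LKO livers, whereas the neutrophil and endothelial sums are at 1.02 in Brg1LKO replicate 2.

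Other genes of the pathway were counted by list, 62 genes besides the 10. Of these 41 were tested and 1 was past the threshold, *Cd44*, against 0.98% of all genes tested. The groups did not overlap in 15 of the 41, 10 with Brg1LKO above and 5 below, against 20.7% of all genes tested. *Cd44*, a hyaluronan receptor through which neutrophils adhere in liver sinusoids and which also binds E-selectin, was at 0.737 and 0.582 FPKM in WT mice, and at 0.957 and 2.58 FPKM in Brg1LKO mice. On the log2 scale it was 1.15 higher (standard error 0.43), with adjusted p = 1 in limma. This was 0.48 without Brg1LKO replicate 2, and *Cd44* was no longer past the threshold without that liver, without either WT liver, with a pseudocount of 1 (0.67) or without the filter on low values, 5 of the 13 alternatives.

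Among the 10 selectins and selectin ligands, 5 were tested, 4 higher and 1 lower (*Selp*), with a median log2 fold change of 0.47 that stayed between 0.40 and 0.53 with a liver left out. *Selplg*, the leukocyte ligand of P-selectin, was at 0.332 and 0.197 FPKM in WT mice, and at 0.481 and 0.656 FPKM in Brg1LKO mice (log2 fold change 0.89, adjusted p = 1 in limma), and was named after its values were seen. *St3gal4*, a sialyltransferase that builds selectin ligands and the most abundant gene of the list, had a log2 fold change of 0.40. Of the 15 inducers of recruitment, 9 were tested and 0 were past the threshold, with a median of 0.05. It turned to −0.11 without Brg1LKO replicate 1 and was 0.11 without Brg1LKO replicate 2. The cytokine genes *Csf2* and *Il17a* were at 0 in all livers, and *Mif*, the most abundant, was at 61.3, 126, 94.8 and 89.3 FPKM (WT replicates 1 and 2, then Brg1LKO replicates 1 and 2). *Il1b* was at 3.53, 0.72, 1.37 and 1.06 FPKM in the same order, with overlapping groups, and *Il6* and *Tnf* were under the filter. By qPCR, the study found *Il1b*, *Il6* and *Tnf* lower in Brg1LKO livers.

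The 10 genes of integrin activation were all tested, with a median of 0.20 and 0 past the threshold. Without Brg1LKO replicate 2 the median was −0.06, with 4 higher, and without Brg1LKO replicate 1 it was 0.65. *Rap1b*, a small GTPase and the most abundant, had a log2 fold change of 0.16. The 8 leukocyte integrins, *Itgb2* included, had 6 tested, with a median of 0.29 and 0 past the threshold. This median was 0.02 without Brg1LKO replicate 2 and 0.90 without Brg1LKO replicate 1. It was 0.15 when WT replicate 1 was omitted and 0.48 when WT replicate 2 was. The 11 genes of endothelial adhesion and transmigration had 10 tested, 5 higher and 5 lower, with a median of −0.02 and 0 past the threshold, and *F11r*, a junction gene and the most abundant, was at −0.10. *Jam2*, *Esam* and *Pecam1*, which encode endothelial junction proteins, were named after their values were seen. They were lower in both Brg1LKO livers than in both WT livers, as were 10.0% of all genes tested. Their log2 fold changes were −0.64, −0.45 and −0.35, none of which passed the test. *Jam3*, of the same list, was instead higher in both Brg1LKO livers (0.33), and *Cdh5* and *Cd99l2* were at 0.02 each.

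**Figure D5:**
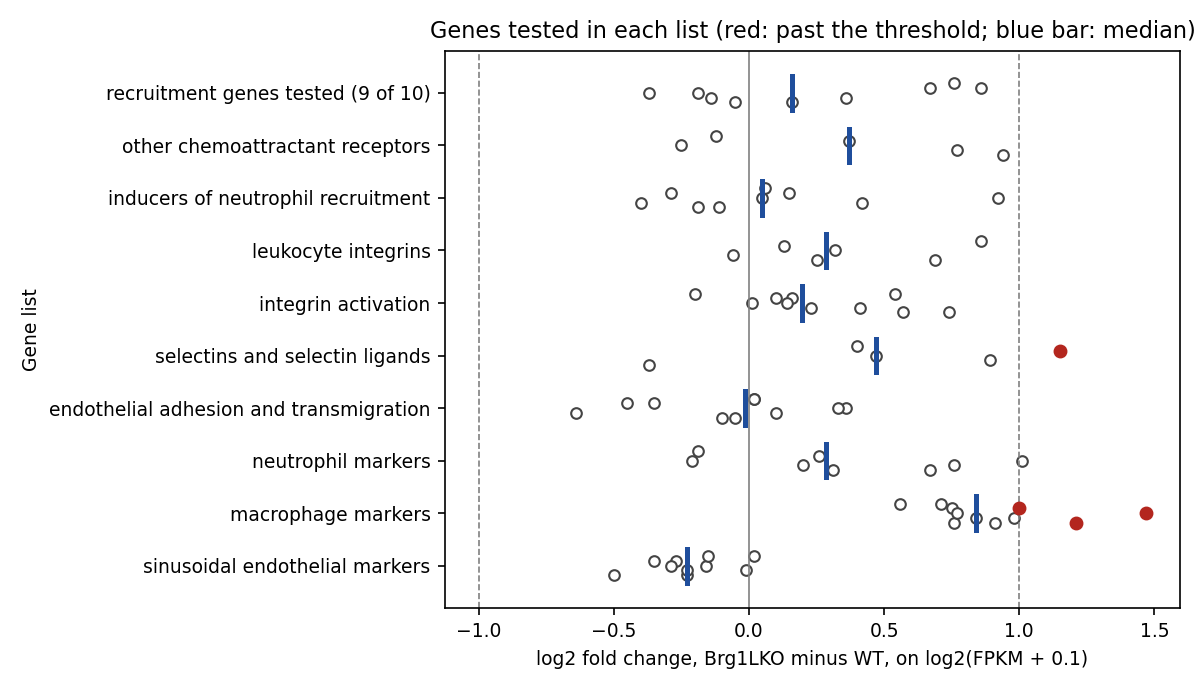
log2 fold change of Brg1LKO against WT on the log2(FPKM + 0.1) scale (horizontal axis) of each gene tested, by list (vertical axis), with a blue bar at the median and red points past the threshold. Cd44 and 3 macrophage markers (Cd68, Vsig4 and Cd5l) are the red points.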

How the data were processed

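Whole-liver RNA-seq of 2 WT and 2 Brg1LKO mice was analysed, grouped by the sample labels. The authors deposited FPKM values, 1 per transcript identifier and liver. Per the study's methods, reads were trimmed with Trimmomatic, mapped to GRCm38 with HISAT2 and FPKM calculated with Cufflinks, while the submitters' processing notes name HISAT2 2.0.4 and StringTie 2.1.4. The study's methods describe TruSeq stranded libraries and the labels a BGIseq protocol. The read counts tested by the authors with DESeq were not used here. FPKM depends on the total of each library, and no normalization between libraries is stated.

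Transcript lengths came from GENCODE M21 (98.3% of entries). In the table, 27 symbols turned into dates were restored, and of entries sharing a symbol the highest kept it. Library totals were recovered from transcripts of at least 2000 bases, and of the values up to 20 reads 88.2% to 89.5% were whole within 0.1. Reads per gene are estimates at the GENCODE length, and limits from 3 reads cover counting error only. The test was limma 3.58.1 (R 4.3.3, eBayes with trend) on log2(FPKM + 0.1), with a mean of 0.1 FPKM as the minimum, and the procedure was tested on simulated data. Python 3.11.15 was used for the rest.

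The genes and lists were chosen with earlier results of these data known. Named genes are the 10 genes, *Smarca4*, each pathway gene past the threshold, the most abundant gene of each pathway list, the neutrophil markers and the 5 genes nearest to *S100a8*. All other genes named, among them the further CXCR2 ligands, the β2 integrin α chains, *Csf2*, *Il17a* and the platelet, macrophage and endothelial genes, are not covered by it and were picked with their values in view. Marker lists of monocytes and of T, B, NK and stellate cells gave 0 genes past the threshold, with 1, 0, 0, 0 and 8 genes tested, as did 6 hepatocyte markers. Alternatives tried were voom on estimated reads, a replicate block, omission of single livers, quantile normalization or median-ratio rescaling, eBayes with no trend, a minimum mean of 1 FPKM or none, and pseudocounts of 0.01 and 1.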

Additional observations from a re-analysis of the deposited data

How the results depend on the processing

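The recruitment genes past the threshold numbered 0, and 1 (*Itgb2*) with a pseudocount of 0.01 and with voom on estimated reads. With each liver left out in turn they ranged from 0 to 2, and the lone liver of a genotype was then assumed to vary like the pair. Over all genes the number was 121, and 18 with a pseudocount of 1, 80 without a filter, 68 with 1 FPKM as the minimum mean, and 73 to 557 with a liver left out. The median log2 fold change of the 10 genes was 0.12, and 0.34 with a pseudocount of 0.01, 0.39 with voom (9 genes), and −0.01 to 0.47 with a liver left out. That of the 16 neutrophil markers, 0.23, was 0.74 with a pseudocount of 0.01 and 0.05 to 0.45 with a liver left out. The cause of these changes was not tested.

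*Cxcl2* turned from −0.14 to 0.30 with a pseudocount of 0.01 and to 0.56 with voom, and ranged from −1.21 to 0.92 with a liver left out. *Cxcl1* ranged from −0.02 to 0.34 and *Cxcr2* from −0.39 to 0.01 in this way, so that both changed sign in 1 case. *S100a8*, *S100a9*, *Icam1*, *Vcam1*, *Selp* and *Itgb2* kept their direction under all 13 alternatives, in part with no more than a sign. *S100a8* was at 0.01 without Brg1LKO replicate 1, *S100a9* at 0.01 without WT replicate 2, and *Icam1* reached −0.01. The correlation of same-numbered deviations was 0.031 over 12346 genes, a figure for all genes together that does not speak for single genes. With the replicate block, 0 of the recruitment genes and 108 of all genes were past the threshold. An unadjusted limma p under 0.05 was then reached by 357 of the 12346 genes tested, against 247 without the block. Among them were 3 recruitment genes, *S100a8* (0.0445), *S100a9* (0.0209) and *Itgb2* (0.0232). With this block, *S100a8* and *S100a9* kept their log2 fold changes of 0.67 and 0.76. *Lcn2* was then past the threshold, 1 of the neutrophil markers. Depth limits *Sele*, *Cxcl2* and *Ly6g*, which had at most 5 reads in 1 or more livers.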
